A study of Mus musculus with 8 samples.

Results

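The keratins and ductular progenitor markers Krt7, Krt8, Krt18, Krt19, Krt23, Epcam, Sox9, Cldn7 and Cd24a were examined in mouse liver. The members were all probe sets whose annotation named a single gene among these 9 symbols, which gave 16 of the 45037 probe sets of the array that were not controls, and 9 of the 18193 genes named by such a probe set. A probe set is a group of short probes read out as 1 value for a transcript. RNA came from liver of Pemt+/+ mice and of Pemt-/- mice, in which the gene of phosphatidylethanolamine N-methyltransferase is deleted in the whole body. Every mouse received the high fat-high sucrose (HFHS) diet. Each genotype was measured once after 1 week, once after 2, once after 3 and once after 4 weeks, which made 4 arrays per genotype and 8 in all. The study's methods describe male mice and 4 mice per genotype, without saying how these were divided over the arrays, and the age at sampling is not stated in the labels. The p-values of the genotype difference therefore rest on how far the weekly differences between the genotypes spread. Those of the change over the weeks rest on the scatter of the arrays about a line fitted in each genotype. In both, the limma fit also draws the spread of a probe set toward that of other tested probe sets of like brightness. Neither kind of p-value rests on repeated arrays of the same genotype and week, and with only 8 arrays each estimate is imprecise.

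Keratins are the intermediate filament proteins of epithelial cells, and a filament needs a type II keratin paired with a type I keratin. Hepatocytes carry the pair of Krt8 (type II) and Krt18 (type I), while bile duct cells also carry Krt7 and Krt19. In injured liver, cells with duct markers can multiply around the portal tracts, a change called the ductular reaction, and Epcam, Sox9 and Cd24a are commonly used to mark these cells and liver progenitors. In bulk liver, fewer cells of a type and less RNA per cell cannot be told apart, and the same holds for more cells and more RNA per cell.

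The genes lie on 4 chromosomes of the mouse assembly GRCm38.p6. Krt7 (chr15:101412403-101427806), Krt8 (chr15:101996711-102004342) and Krt18 (chr15:102028216-102032026) lie on chromosome 15. Between Krt8 and Krt18, whose starts face each other, lie 23873 bases with 2 annotated genes. Krt23 (chr11:99477973-99493120), Krt19 (chr11:100140810-100145926), Sox9 (chr11:112782210-112787757) and Cldn7 (chr11:69964779-69967886) lie on chromosome 11. Cd24a (chr10:43579169-43584265) lies on chromosome 10 and Epcam (chr17:87635979-87651127) on chromosome 17.

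The start regions of Krt8 and Krt18 are shown because the values of this pair moved together most closely when Krt8 was set against the probe sets of all other genes. Each runs 5′ to 3′ on the strand of the gene, from 250 bases before the annotated start to 30 bases after it, taken from RefSeq. The Krt8 region is chr15:102004313-102004592 on the minus strand and the Krt18 region is chr15:102027966-102028245 on the plus strand. Capitals mark matches to TATAAA, the core of a TATA box.
Krt8: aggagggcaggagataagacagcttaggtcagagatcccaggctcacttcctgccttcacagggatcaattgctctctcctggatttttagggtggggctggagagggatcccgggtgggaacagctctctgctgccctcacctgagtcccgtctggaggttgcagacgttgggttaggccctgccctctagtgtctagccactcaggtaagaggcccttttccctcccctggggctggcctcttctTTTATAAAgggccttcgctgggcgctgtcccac
Krt18: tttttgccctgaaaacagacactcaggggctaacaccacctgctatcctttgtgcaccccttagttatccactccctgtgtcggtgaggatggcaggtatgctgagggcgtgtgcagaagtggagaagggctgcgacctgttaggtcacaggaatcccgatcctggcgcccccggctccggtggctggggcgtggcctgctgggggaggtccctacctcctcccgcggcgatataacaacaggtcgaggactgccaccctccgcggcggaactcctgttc
The Krt8 region held 2 overlapping matches to TATAAA, 1 on each strand, which lie across the annotated start. The Krt18 region held none. TATAAA was found on either strand in 13.1% of the 32851 RefSeq start regions of the same length. Neither region held the AP-1 letters TGACTCA or TGAGTCA (4.94% of start regions), the GC box GGGCGG (34.7%) or the TEAD letters GGAATG (13.9%), searched on both strands.

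The deletion showed in the targeted gene. The intensity of Pemt lay between 201 and 255 on the Pemt-/- arrays and between 4989 and 6045 on the Pemt+/+ arrays, which was 23.2-fold lower in Pemt-/- liver (adjusted p = 5.00e-07, limma). Intensity is the deposited linear brightness of a probe set, scaled by the authors to a common level on each array. Every test of it was made within a probe set. The filter, percentiles, the choice of the brightest probe set and sums over lists set probe sets side by side, and sums weigh bright ones most. The intensity of the hepatocyte markers was high in both genotypes apart from Ass1, with means of 401 in Pemt-/- and 377 in Pemt+/+ liver. Alb, the gene of albumin, had a mean of 36768 in Pemt-/- liver (SD 5186, n = 4) and 45531 in Pemt+/+ liver (SD 3349, n = 4). It was lower in Pemt-/- liver by -0.32 ± 0.09 (SE) on the log2 scale (adjusted p = 0.0442, limma).

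Of the 9 genes, 5 had a probe set called higher in Pemt-/- liver and 4 had none. The hepatocyte keratin pair Krt8 and Krt18 gained intensity at every week in Pemt-/- liver. The difference in slope between the genotypes did not pass the test for any member. The genotype difference was fitted by limma on log2(intensity + 16) with the week as a factor, over the 27022 probe sets whose mean lay above the 40th percentile, and was called at an adjusted p under 0.05. Of the 15 member probe sets tested, 8 were higher in Pemt-/- liver, none was lower and 7 did not pass, where 10.3% of all tested probe sets were higher and 5.86% lower. The 8 belonged to 5 genes, Krt8, Krt18, Epcam, Cldn7 and Cd24a, and 3 of them to Krt8 alone. Counted by the brightest probe set of each gene, 4 of the 9 genes were higher, without Epcam. The share over all genes counted this way was 12.6%. Cldn7 passed the filter only through its Pemt-/- arrays, and of the other 14 probe sets, which lay above the filter level in both genotypes, 7 were higher. Krt7, Krt19, Krt23 and Sox9 had no probe set past the threshold. The fitted difference lay above 0 for all 15, with a median of 0.89 on the log2 scale beside 0.02 over all tested probe sets. Probe sets of 1 gene share their transcript, so the counts over probe sets are not counts of separate genes.

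**Figure D1:**
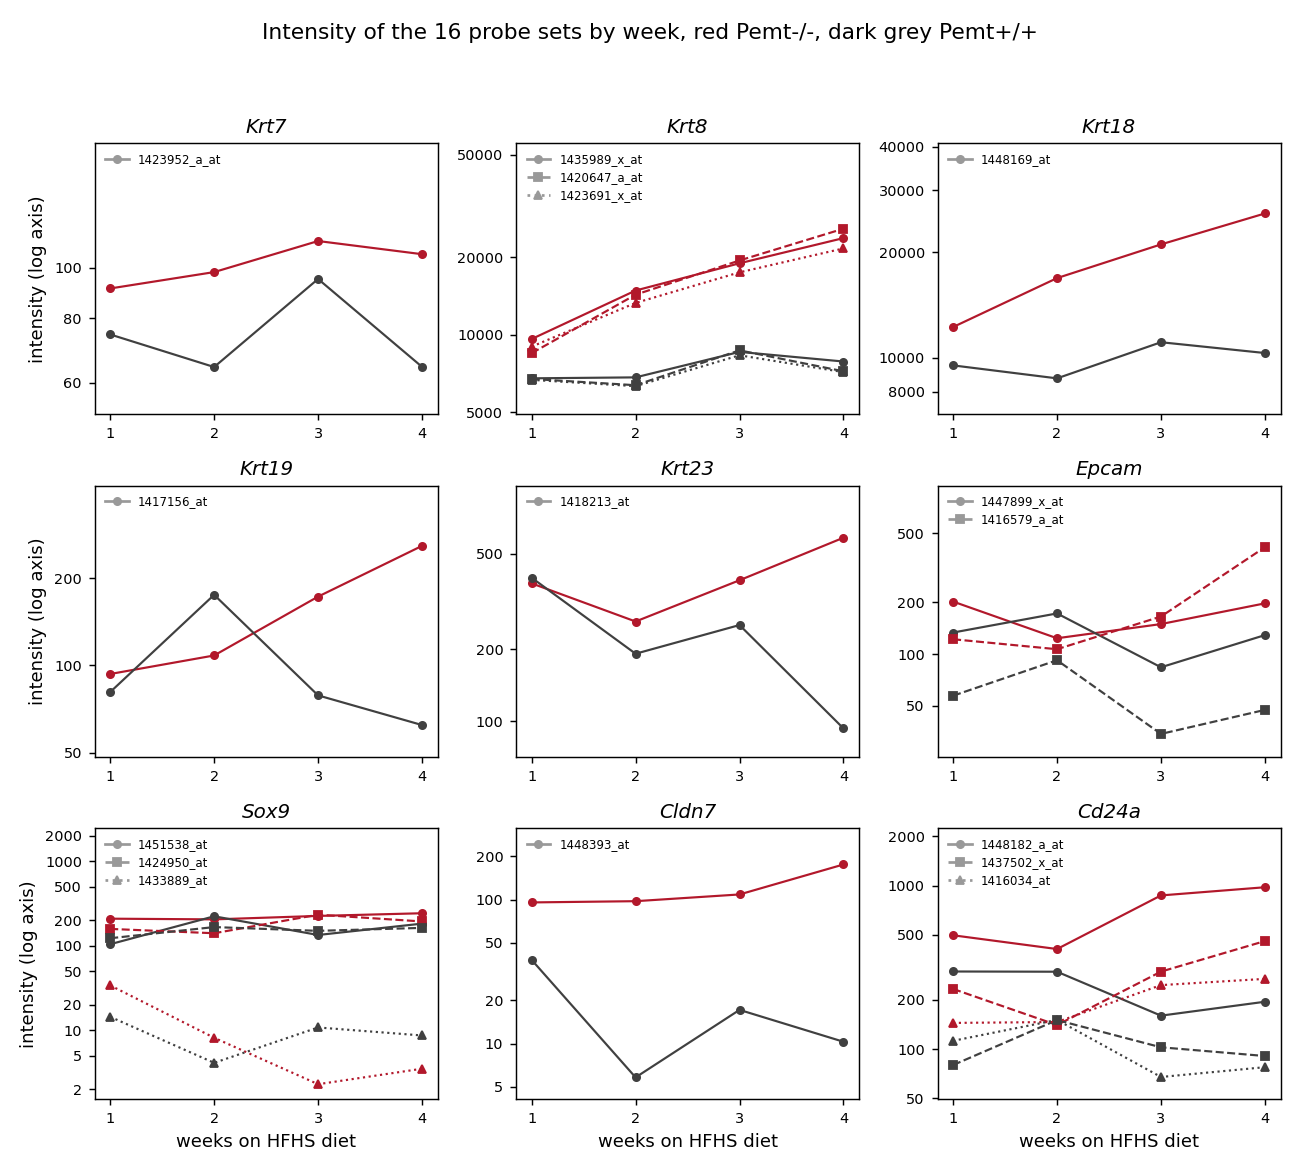
Intensity (vertical log axis, own range in each panel) of every member probe set against weeks on the HFHS diet, 1 panel per gene, with Pemt-/- in red and Pemt+/+ in dark grey, 1 array per point and marker shapes for the probe sets of a gene. The Krt8 and Krt18 lines climb at each week in Pemt-/- only, the Krt19 and Krt23 lines are furthest apart at week 4, and the lines of the 2 brighter Sox9 probe sets lie close together.

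Krt8 was measured by 3 probe sets that ran alike. The intensity of 1435989_x_at in Pemt-/- liver was 9612 at week 1, 14838 at week 2, 18939 at week 3 and 23731 at week 4. In Pemt+/+ liver it was 6760.3, 6818, 8565 and 7858 in the same order. Every Pemt-/- array thus lay above every Pemt+/+ array, and the lowest Pemt-/- value was the one at week 1. The fitted difference was 1.09 ± 0.15 (SE) on the log2 scale, 2.13-fold, with an adjusted p of 0.0028 (limma). The probe set 1420647_a_at, whose name marks several transcripts of 1 gene, read 8469, 14297, 19420.4 and 25811 in Pemt-/- liver. In Pemt+/+ liver it read 6721, 6356, 8685 and 7199, so that the week 1 array of Pemt-/- lay within the Pemt+/+ range. Its difference was 1.12 ± 0.20 (SE, 2.18-fold, adjusted p = 0.0071, limma). The probe set 1423691_x_at differed by 1.04 ± 0.16 (SE, 2.06-fold, adjusted p = 0.0042, limma) without overlap. The suffix x_at of this and the first probe set marks probes that may match other transcripts too.

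Krt18, the partner of Krt8, ran from 12238 at week 1 through 16872 and 21049 to 25789.9 at week 4 in Pemt-/- liver. In Pemt+/+ liver the 4 values were 9514, 8738, 11077 and 10319. The groups did not overlap, and the difference of 0.89 ± 0.14 (SE) on the log2 scale, 1.85-fold, passed the threshold (adjusted p = 0.0044, limma). The weekly ratio of Pemt-/- to Pemt+/+ intensity was 1.29, 1.93, 1.90 and 2.50 for Krt18, and 1.26, 2.25, 2.24 and 3.59 for Krt8 by 1420647_a_at. For both genes it was therefore lowest at week 1 and highest at week 4, with little between weeks 2 and 3. The intensity of the brightest Krt8 probe set and that of Krt18 had a Pearson r of 0.998 over the 8 arrays on the log2 scale. This was the highest among the tested probe sets that named a single gene other than Krt8. Rpl35, a ribosomal protein gene (r = 0.994), and Capns1, the small subunit of calpain (r = 0.992), came next. These arrays share genotype and week, and r over 8 of them is a description.

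For the bile duct keratins the genotypes overlapped and no call was made. Krt19, the type I keratin of duct cells, read 93.4, 108, 173 and 259 at weeks 1 to 4 in Pemt-/- liver and 80.9, 175, 78.8 and 62.2 in Pemt+/+ liver. The Pemt+/+ array of week 2 stood above the other 3 Pemt+/+ arrays and above the Pemt-/- array of its week. The fitted difference was 0.59 ± 0.36 (SE, adjusted p = 0.303, limma). Without week 2 it was 0.99 with an adjusted p of 0.0725, and without week 4 it was 0.18. By week the Krt19 ratio was 1.15, 0.617, 2.19 and 4.16, so the genotypes were furthest apart at the end.

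Krt7, the type II keratin of duct cells, was near the middle of all probe sets in brightness. It read 91.2, 98.1, 113 and 106 in Pemt-/- liver and 74.4, 64.4, 95.2 and 64.4 in Pemt+/+ liver. It was higher in Pemt-/- at all 4 weeks, but its difference of 0.39 ± 0.21 (SE) did not pass (adjusted p = 0.246, limma).

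Krt23, a type I keratin, read 376, 261, 387 and 583 in Pemt-/- liver and 397, 191, 252 and 93.4 in Pemt+/+ liver. The groups overlapped over the first 3 weeks, and the week 4 arrays were the highest of Pemt-/- and the lowest of Pemt+/+. The ratio was 0.948 at week 1 and 6.24 at week 4, and the fitted difference was 0.85 ± 0.35 (SE, adjusted p = 0.140, limma). Without week 4 it was 0.31, so that the size rests on that week. Among tested probe sets of a single named gene, the closest to Krt19 over the 8 arrays were those of Mlph (r = 0.959), Ric8a (r = 0.958) and Epc1 (r = 0.953). Those closest to Krt23 were those of Zfand3 (r = 0.970), Ubn2 (r = 0.960) and Pkia (r = 0.959). No member was among them.

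**Figure D2:**
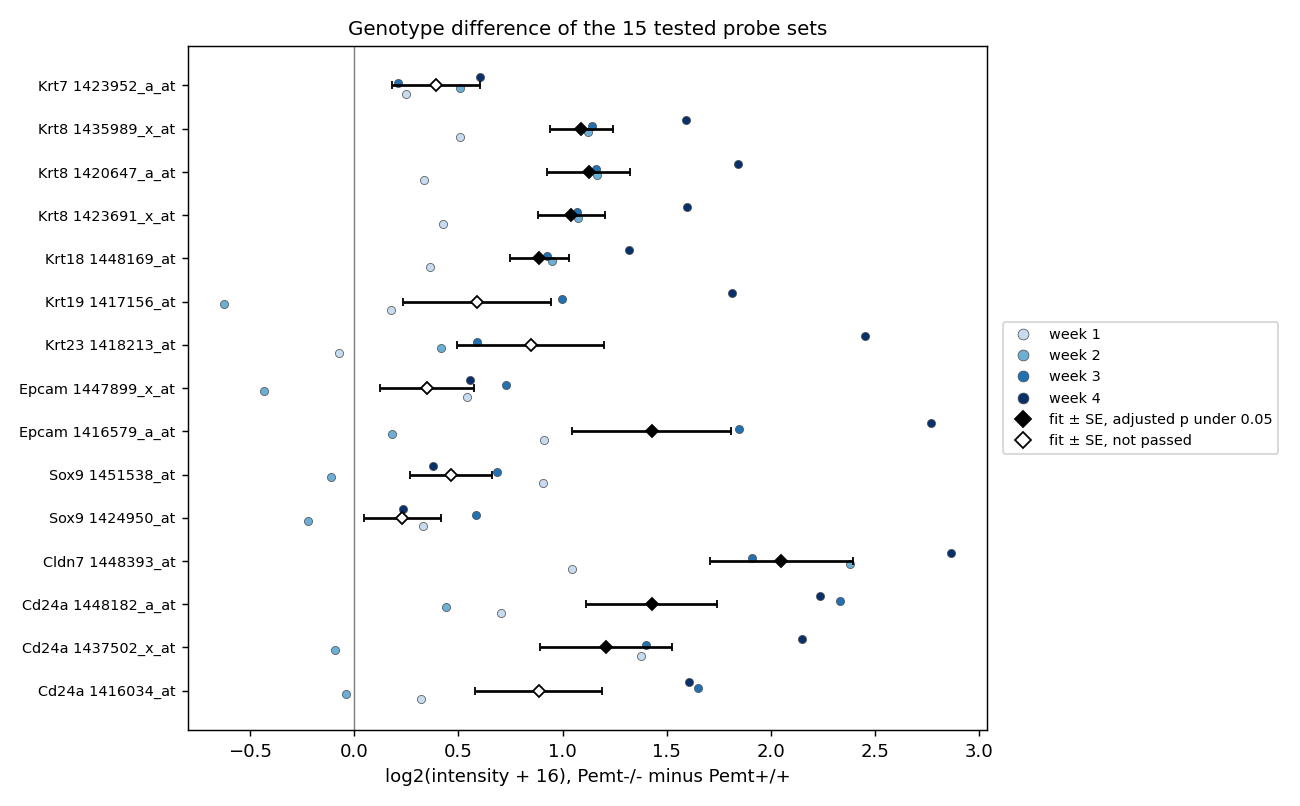
Difference of Pemt-/- minus Pemt+/+ in log2(intensity + 16) for the 15 tested member probe sets, with bars for the SE of the limma fit, filled where the adjusted p was under 0.05, and small marks for the 4 weekly differences. All 15 points lie above 0, from 0.23 for a Sox9 probe set to 2.05 for Cldn7 with 16 as the added constant, and the weekly marks spread widely for Krt19, Krt23 and the Epcam probe set 1416579_a_at.

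Epcam, the epithelial adhesion molecule, was measured by 2 probe sets that did not give the same call. The probe set 1416579_a_at read 122, 107, 165 and 416 in Pemt-/- liver and 57.3, 92.0, 34.4 and 47.4 in Pemt+/+ liver. The groups did not overlap, and the week 4 array of Pemt-/- was the highest of all. The difference was 1.43 ± 0.38 (SE, 2.69-fold, adjusted p = 0.0361, limma). Leaving out week 1, 3 or 4 ended the call, with adjusted p-values of 0.0809, 0.1313 and 0.1311. So did setting no filter (0.0687) or leaving the variance trend out of the fit (0.0865). The probe set 1447899_x_at read 201, 123, 149 and 197 in Pemt-/- liver and 133, 172, 83.7 and 129 in Pemt+/+ liver. Here the groups overlapped and the difference was 0.35 ± 0.23 (SE, adjusted p = 0.337, limma).

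Cldn7, a claudin of epithelial junctions, had a fitted difference whose size depends on the constant added before the logarithm. It read 95.7, 97.6, 109 and 176 in Pemt-/- liver and 38.2, 5.82, 17.1 and 10.3 in Pemt+/+ liver. All Pemt-/- arrays lay above all Pemt+/+ arrays. It passed the filter only through Pemt-/- liver, since its Pemt+/+ mean lay below the filter level, an intensity of 45.5, so that a probe set of this kind had to differ to be tested. Its mean over all arrays lay at percentile 41.6. With the whole array tested and no filter, the difference was 2.05 on the log2 scale with an adjusted p of 0.0119 (limma). With the filter it was 2.05 ± 0.34 (SE, adjusted p = 0.0059, limma). With 64 as the added constant in place of 16 it was 1.16, and with a constant of 1 or without week 1 the probe set did not pass the filter.

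Cd24a, a small glycoprotein of the cell surface that is also carried by leukocytes and young red cells, was measured by 3 probe sets. The brightest, 1448182_a_at, read 497, 409, 870.0 and 976 in Pemt-/- liver and 298, 297, 160.3 and 195 in Pemt+/+ liver. These groups did not overlap, and the gap was wider at weeks 3 and 4, with ratios of 5.43 and 5.01, than at weeks 1 and 2, with 1.66 and 1.38. Its difference was 1.43 ± 0.32 (SE, 2.69-fold, adjusted p = 0.0176, limma). The call ended without week 3 (0.0764) or week 4 (0.0699), and with the variance trend left out of the fit (0.0683). The probe set 1437502_x_at was also higher (1.21 ± 0.32, SE, adjusted p = 0.0335, limma), although the genotypes were nearly level at week 2. It lost the call without week 1, 3 or 4, with no filter (0.0612) and without the variance trend (0.0865). The third, 1416034_at, gave 0.88 ± 0.31 (SE, adjusted p = 0.0844, limma), and passed without week 2 (0.0290).

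Sox9, a transcription factor of duct cells, had 3 probe sets. The probe set 1451538_at read 210, 205.6, 226 and 243 in Pemt-/- liver and 104, 224, 134 and 183 in Pemt+/+ liver. It overlapped between the genotypes and its difference was 0.46 ± 0.20 (SE, adjusted p = 0.150, limma). The probe set 1424950_at also overlapped, with 0.23 ± 0.19 (SE, adjusted p = 0.439, limma). The third, 1433889_at, lay below the filter at 2.29 to 34.0 in Pemt-/- and 4.10 to 14.4 in Pemt+/+ and was not tested. At week 2 both tested Sox9 probe sets, Krt19, 1 Epcam probe set and 2 Cd24a probe sets were lower in Pemt-/- than in Pemt+/+ liver.

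Counted over the array values, 6 of the 15 tested member probe sets had every Pemt-/- array above every Pemt+/+ array (12.8% of all tested). At 4 of 4 weeks, 8 were higher in Pemt-/- (21.2% of all tested). Both counts include Cldn7, which passed the filter only through its Pemt-/- arrays and so had to differ to be tested. Within each week, where 1 array per genotype allowed no test, 5 of the 16 probe sets had a Pemt-/- to Pemt+/+ ratio of 2 or more at week 1, 4 at week 2, 9 at week 3 and 11 at week 4. Over all 45037 probe sets the share was 13.3% at week 1, 13.4% at week 2, 14.4% at week 3 and 15.9% at week 4. A ratio of 0.5 or less was found for none of the 16 at weeks 1 and 2 (14.2% and 14.9% of all probe sets) and for 1 at weeks 3 and 4 (15.9% and 14.6%), the dim Sox9 probe set. That untested probe set is also 1 of the 5 with a ratio of 2 or more at week 1 (34.0 against 14.4).

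The change over the weeks was fitted as a slope per week in each genotype. Of the 15 tested member probe sets, 7 had an intensity that rose at every week in Pemt-/- liver (5.94% of all tested) and none in Pemt+/+ liver (4.04%). The 7 were the 3 of Krt8, Krt18, Krt19, Cldn7 and the Cd24a probe set 1416034_at. The slope in Pemt-/- liver lay above 0 for all 15, with a median of 0.35 per week on the log2 scale beside 0.01 over all tested probe sets. In Pemt+/+ liver it lay above 0 for 6 of the 15.

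The 3 Krt8 probe sets were called for a rise in Pemt-/- liver, where 8 probe sets, 0.0296% of all tested, were. Their slopes were 0.53 ± 0.07 (SE, adjusted p = 0.0363), 0.43 ± 0.06 (SE, adjusted p = 0.0396) and 0.42 ± 0.06 (SE, adjusted p = 0.0498) per week by limma. From week 1 to week 4 this was 3.05-fold, 2.47-fold and 2.41-fold, beside 1.07-fold, 1.16-fold and 1.07-fold in Pemt+/+ liver. The call was lost for all 3 without week 1, 3 or 4, without the filter on dim probe sets and with each array centred on a median. Krt18 had a slope of 0.35 ± 0.05 (SE, adjusted p = 0.058, limma) and a 2.11-fold gain from week 1 to week 4.

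No member and no other probe set passed for a slope in Pemt+/+ liver by limma, where 1 of the 15 members and 1472 of all tested probe sets had an unadjusted p under 0.05. None passed for the difference between the slopes either, where 9 of the 15 members and 1818 of all had an unadjusted p under 0.05. The difference lay above 0 for 14 of the 15 members. For Krt8 by 1420647_a_at it was 0.45 ± 0.09 (SE, adjusted p = 0.498, limma), and for Krt23 it was 0.78 ± 0.21 (SE, adjusted p = 0.597, limma).

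**Figure D3:**
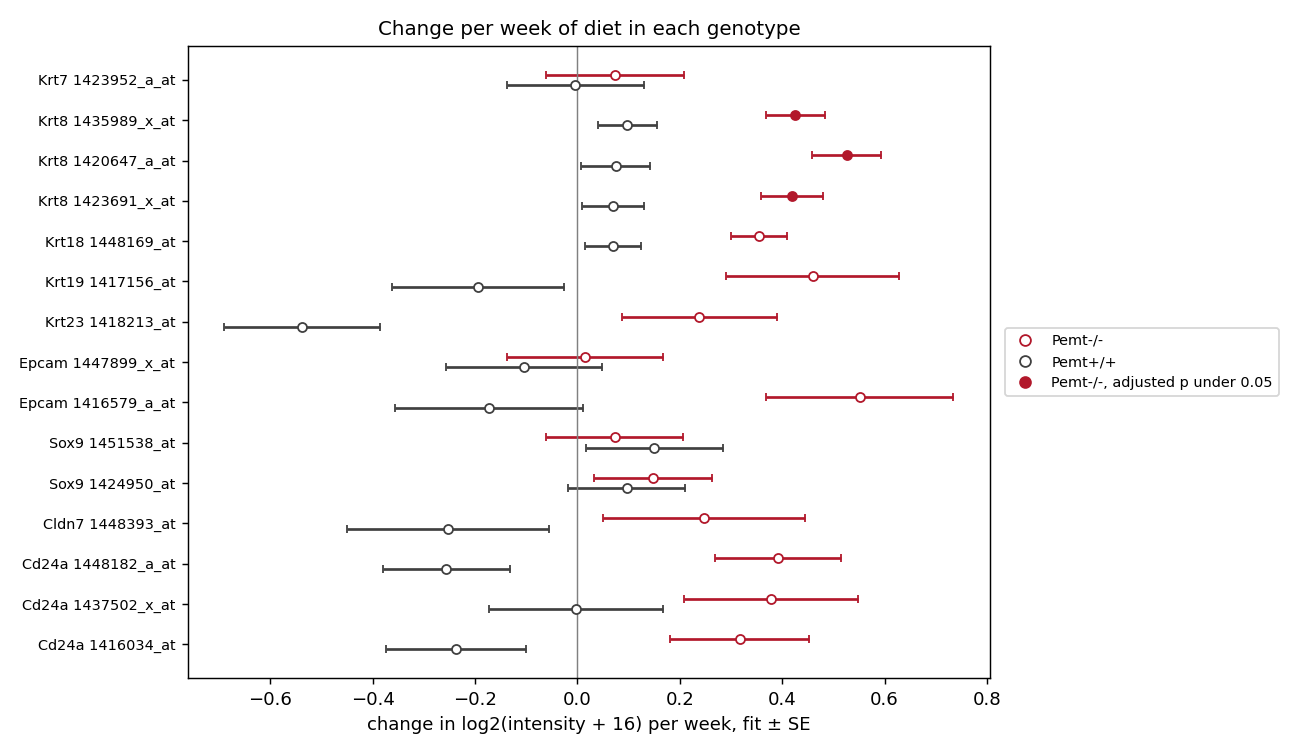
Change per week of log2(intensity + 16) in Pemt-/- (red) and Pemt+/+ (dark grey) for the 15 tested member probe sets, with bars for the SE of the limma fit, filled where the adjusted p was under 0.05. The Pemt-/- points all lie above 0 and only the 3 Krt8 points are filled, with slopes of 0.42 to 0.53 and short bars.

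Genes with roles near those of the members were counted by their brightest probe set. Over the 12949 genes tested this way, 12.6% were higher and 7.51% lower in Pemt-/- liver. Of the other keratins, 12 of 39 passed the filter. Krt88 was higher (1.16 ± 0.29, SE, adjusted p = 0.0294) and Krt81 lower (-0.88 ± 0.20, SE, adjusted p = 0.0196), and the other 10 did not pass, with a median of -0.14 over the 12. Of the other claudins and tight junction genes, 1 of 18 was higher, F11r, a junctional adhesion molecule (0.42 ± 0.11, SE, adjusted p = 0.0380), and 17 did not pass.

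Among the proteins that tie keratins to desmosomes, 2 of 10 were higher, periplakin (Ppl, 0.95 ± 0.20, SE, adjusted p = 0.0157) and desmocollin 2 (Dsc2, 0.44 ± 0.11, SE, adjusted p = 0.0306). Mallory-Denk bodies are clumps of Krt8 and Krt18 with other proteins in injured hepatocytes. Of their other components, 3 of 7 were higher and none lower. These were the crosslinking enzyme Tgm2 (0.77 ± 0.12, SE, adjusted p = 0.0049), the ubiquitin-binding protein Sqstm1 (0.44 ± 0.10, SE, adjusted p = 0.0166) and the small heat shock protein Hspb1 (0.69 ± 0.17, SE, adjusted p = 0.0271), all by limma. Of the other intermediate filament genes, 4 of 7 were higher, the mesenchymal Vim (1.87 ± 0.26, SE) and Des (1.54 ± 0.28, SE) and, of the nuclear lamins, Lmna (1.30 ± 0.15, SE) and Lmnb1 (0.50 ± 0.13, SE).

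Of the regulators of biliary fate, which include the Notch and Yap-Tead pathways, 8 of 19 were higher and none lower, with a median of 0.47. The 4 with the smallest p were Tead1, a partner of Yap (0.92 ± 0.11, SE, adjusted p = 0.0016), Sox4 (1.67 ± 0.21, SE, adjusted p = 0.0018), Tnfrsf12a, the receptor of the cytokine Tweak (1.90 ± 0.30, SE, adjusted p = 0.0048), and Ccn1 (0.61 ± 0.14, SE, adjusted p = 0.0181), all by limma. Sox4 read 1392, 983, 2114 and 2442 in Pemt-/- liver and 618, 436, 402 and 587 in Pemt+/+ liver, without overlap. Yap1 itself did not pass (-0.03, adjusted p = 0.872).

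Of the other cholangiocyte markers, 5 of 19 were higher, none was lower and 14 did not pass, with a median of 0.20. St14, a membrane protease of epithelia, read 92.3, 87.3, 272 and 379 in Pemt-/- liver and 13.5, 10.1, 4.49 and 40.1 in Pemt+/+ liver. The groups did not overlap. Like Cldn7, St14 passed the filter only through Pemt-/- liver, and its size depends on the added constant (2.62 with an adjusted p of 0.0054 by limma when no filter was set). Bicc1 (1.17 ± 0.21, SE), Prom1 (1.27 ± 0.30, SE) and Anxa4 (0.63 ± 0.16, SE) were also higher. Cdh1 (0.01, adjusted p = 0.983) and the cyst protein gene Pkhd1 (0.14, adjusted p = 0.479) did not pass. Muc1, the duct chloride channel Cftr and the secretin receptor Sctr, which define ducts, lay below the filter. Muc1 read 33.1 to 146 in Pemt-/- and 20.1 to 27.7 in Pemt+/+ liver. The genotypes overlapped for Cftr, with 20.4 to 55.7 against 28.3 to 39.4, and for Sctr, with 6.10 to 94.2 against 9.54 to 24.4. Dmbt1, also below the filter, overlapped too, with 0.985 to 870 against 2.08 to 847.

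**Figure D4:**
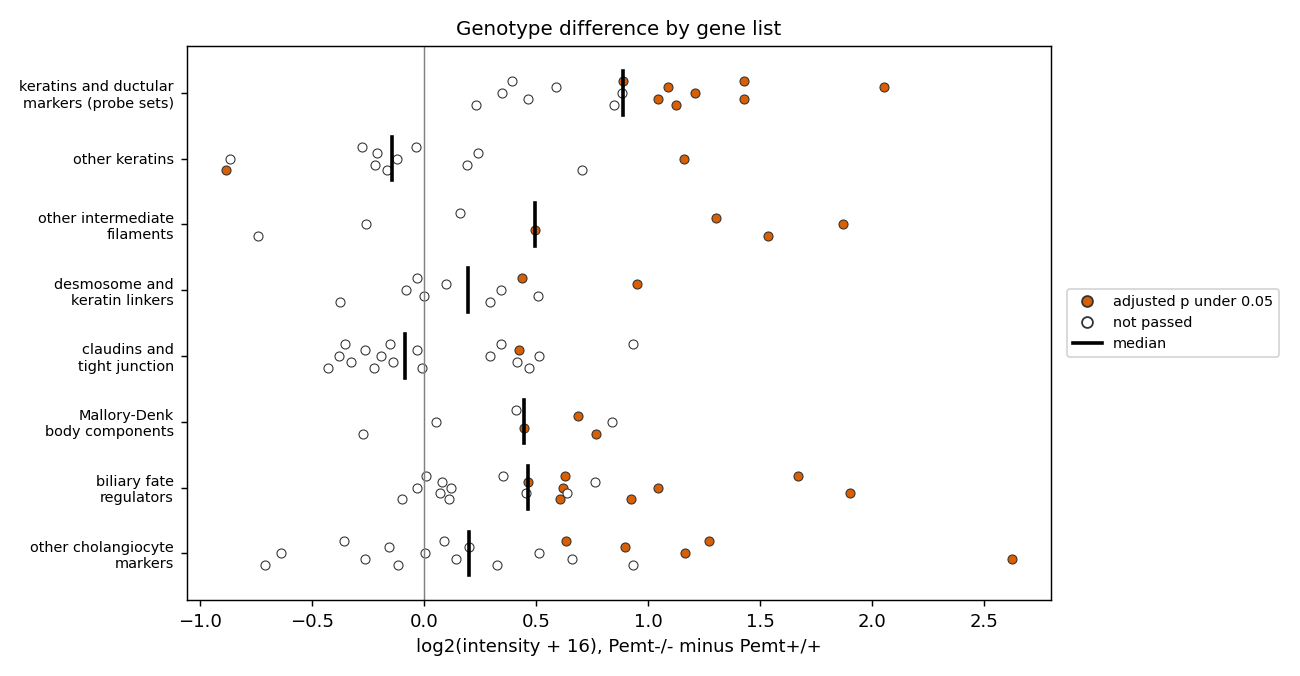
Difference of Pemt-/- minus Pemt+/+ in log2(intensity + 16) for the member probe sets and for the genes of 7 related lists, namely other keratins, other intermediate filaments, desmosome, tight junction, Mallory-Denk body, biliary fate and other cholangiocyte genes (1 probe set per gene, rows spread vertically for sight), filled where the adjusted p was under 0.05, with a bar for the median of each row. The member row, which holds several probe sets of some genes, has a median of 0.89. The medians of the other rows drawn lie between -0.14 and 0.50, and the point farthest to the right is St14 at 2.62. Lists of other cell types are not drawn, and the macrophage, stellate and matrix, and neutrophil lists had medians of 1.41, 1.54 and 0.98.

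Markers of other cells moved with the genotype too, and their part in the results above was not tested. Hepatocyte markers were lower for 10 of 11 genes (median -0.42), with summed intensities of 262354 to 341880 in Pemt-/- and 362897 to 401160 in Pemt+/+ liver. Macrophage markers were higher for 7 of 8 (median 1.41), with sums of 24418 to 32838 against 10679 to 15547. Among the 7, Trem2 read 6.44 to 23.4 in Pemt+/+ liver, below the filter level. Like Cldn7 and St14, it was tested only through its Pemt-/- arrays. Stellate and matrix markers, which also hold Des, were higher for 9 of 9 (median 1.54), with sums of 37188 to 52641 against 14216 to 18667. Markers of neutrophils, which can carry Cd24a too, were higher for 2 of 5, S100a8 and S100a9. Their median was 0.98, with sums of 1087 to 1677 against 257 to 632. Among B cell markers Cd22 was higher and 3 did not pass, with sums of 447 to 509 against 305 to 435, and Cd79a lay below the filter. The erythroid marker tested, Alas2, was lower (-1.49 ± 0.14, SE), with sums of 575 to 1109 against 1604 to 2256 over 5 genes of which 4 lay below the filter.

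Mesothelial cells and exocrine pancreas can also carry keratins. None of 7 mesothelial markers passed, with overlapping sums of 658 to 776 in Pemt-/- and 587 to 814 in Pemt+/+ liver. Of the pancreas markers, 1 of 3 was lower, Cela3b, with sums of 199 to 290 against 325 to 411. Of the intestinal markers, Lgals4 was higher and 1 did not pass, with 5 below the filter and sums of 13137 to 17346 against 9716 to 13441, which overlap.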

How the data were processed

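Liver RNA was measured on 8 Affymetrix mouse expression arrays, 1 array per genotype and week. The authors deposited 1 linear intensity for each probe set and array. Affymetrix Expression Console is named in the submitters' processing notes, and what is not given in the sources used here is its version and the way probes were summarised. The mean intensity with 2% trimmed at each end was 500.004 on every array, control probe sets included. The 64 control probe sets were then left out. Array medians lay between 73.8 and 81.3, and no detection calls were used. The annotation table paired 34945 probe sets with a single gene.

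Values were transformed as log2(intensity + 16), so fold changes of dim probe sets are understated. Probe sets with a mean above the 40th percentile (27022) were fitted in R 4.3.3 with limma 3.58.1 (lmFit, eBayes with trend). The genotype difference had the week as a factor, following the study's comparison within weeks, and the slopes took the week as a numeric term in each genotype. Tests were two-sided and adjusted by the Benjamini-Hochberg method over all tested probe sets, and the scripts were tested on simulated data. The genes named were all members, Pemt, up to 4 genes with the smallest p of each other list and the 3 most alike to Krt8, Krt19 and Krt23, and other list genes that were named were chosen after their values were seen. The members, lists, start region window and motifs were chosen with earlier results of these data known. Start regions matched 6 of the 9 genes in the RefSeq table, and not Krt19, Sox9 or Cd24a. Alternatives were other filters, normalizations, constants and variance priors, the fit without the week, and each week left out.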

Additional observations from a re-analysis of the deposited data

Results flagged for a closer look

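Within each genotype the 4 intensities of the 15 tested member probe sets were searched for a value far from the other 3, in 30 groups in all, of which chance flags about 1 in 20. The Pemt+/+ array of week 2 stood out for Krt19, with an intensity of 175 where the other Pemt+/+ arrays lay between 62.2 and 80.9, a gap of 0.835 of the range. The Pemt-/- array of week 4 stood out for Cldn7, with 176 where the other Pemt-/- arrays lay between 95.7 and 109, a gap of 0.837 of the range. Neither stood out on the log2 scale, and the search on the linear scale was added after that on the log2 scale had found none.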

How the results depend on the processing

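Over the alternatives, the genotype difference of the tested member probe sets gave 198 values, of which 183 kept their direction and side of the threshold, 13 lost the call, 2 gained it and 0 changed sign. The calls of the Krt8 probe sets and Krt18 held in all, and that of Cldn7 wherever it passed the filter. Without the variance trend 5 member probe sets were called instead of 8, and 2348 instead of 4372 over all. The member calls lost were those of Epcam and Cd24a. Leaving out each week in turn gave 5 to 9 members and 1800 to 4812 probe sets. Weeks are the replicate numbers. Arrays of the same week did not deviate together, with correlations of 0.105, -0.0198, -0.0289 and 0.113, so the week is a block by time point only. Without the block 9 members and 4619 probe sets were called. Centring each array on the median of the tested probe sets, chosen after seeing the data, moved the median of all differences from 0.02 to -0.14 and the share of calls that were higher from 63.8% to 37.6%. The Pemt-/- slopes were less stable. The 3 member calls became 0 without the filter, with either median centring and without the trend, and 0 to 4 with a week left out. The 28 calls over all became 1 without the filter, 62 with quantile normalization, 7 and 5 with the centrings, 16 and 62 with constants of 1 and 64, 0 without the trend, and 0 to 102 with a week left out. Leaving out a week gave 0 to 5 Pemt+/+ slope calls. The slope of Epcam 1447899_x_at in Pemt-/- liver was -0.0035 with quantile normalization, -0.0023 and -0.0052 with the centrings, and from -0.20 to 0.30 with a week left out, below 0 without week 2 (-0.04) or 4. The cause of these changes was not tested. With 1 array per genotype and week no week has a spread of its own, and dim probe sets such as Cldn7 have a size set by the added constant.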
